A study of Mus musculus with 6 samples.

Results

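The genes described here are 9 interferon-inducible and antigen presentation genes of the mouse neuroblastoma line N2a, chosen by symbol: Ifi35, Bst2, Stat2, Irf3, Irf9, B2m, H2-K1, H2-D1 and Tap1. All 9 were listed among the 11609 mRNA genes of the tables. All 6 libraries came from cells that had been differentiated toward neuron-like cells with retinoic acid at 10 µM for 96 h in medium with 2% serum. Of these libraries, 3 came from cells then given RSL3 at 5 µM for 24 h, and 3 came from control cells given the solvent DMSO. RSL3 inhibits the lipid peroxide-reducing enzyme GPX4 and induces ferroptosis, an iron-dependent form of cell death. N2a is a single tumour line of strain A mice, and the labels do not say if replicate libraries were separate cultures, so p-values measure only the spread between these libraries, which may be technical.

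Interferons bind surface receptors whose JAK kinases phosphorylate STAT2. Together with IRF9 it takes part in the factor ISGF3, which binds the interferon-stimulated response element (ISRE) in the promoters of antiviral genes. IRF3 acts upstream, where sensors of foreign nucleic acid switch on interferon genes. Interferon also raises class I antigen presentation, in which the TAP transporter feeds peptides to a heavy chain such as H2-K or H2-D that is held by the light chain β2-microglobulin. Neurons and neuroblastoma cells are known for low class I presentation.

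The data hold a rise of Ifi35 and Bst2 with RSL3 and no other member that passed the test. Ifi35 went from 9.63 ± 0.44 to 14.7 ± 0.93 FPKM and Bst2 from 15.3 ± 0.54 to 19.6 ± 1.06 FPKM (SD, n = 3; FPKM is fragments scaled to transcript length and library size). Stat2, Irf3 and H2-D1 also lay higher in every RSL3 library than in any DMSO library without passing. The abundant B2m and the low Tap1 overlapped between the groups, and H2-K1 stood lower on average. All 9 members passed the filter of at least 1 FPKM in at least 3 libraries. By limma, 2 of 9 passed at an adjusted p under 0.05, both higher, against 2.46% of the 10590 tested mRNAs called higher. At an unadjusted p under 0.05, 4 members were higher and 0 lower, against 9.86% and 14.3% of all tested mRNAs (24.1% in either direction). The median log2 fold change was 0.16 for the 9 members and -0.031 for all tested mRNAs. RSL3 lay above DMSO without overlap for 5 of 9 members and below for 0, against 13.4% and 19.6% of all tested mRNAs (33% in either direction). The members were chosen with earlier results of these data known, so these counts describe them and test nothing.

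The promoters of 4 members are shown: those of Ifi35 and Bst2 because they rose, and those of Stat2 and B2m because, like that of Bst2, they hold an interferon response element core. They are RefSeq windows of GRCm38.p6 from 250 bases before to 50 after the annotated start, 5′ to 3′ on the strand of the gene. They lie at chr11:101448162-101448461 on the plus strand (Ifi35), chr8:71537423-71537722 on the minus strand (Bst2), chr10:128270248-128270547 on the plus strand (Stat2) and chr2:122147437-122147736 on the plus strand (B2m). Capitals mark matches to the ISRE core, taken as GAAA, any 2 bases and GAAA, or to TTCNNNGAA, the core of the gamma-activated sequence of genes that respond to interferon gamma. Both strands were searched.
Ifi35: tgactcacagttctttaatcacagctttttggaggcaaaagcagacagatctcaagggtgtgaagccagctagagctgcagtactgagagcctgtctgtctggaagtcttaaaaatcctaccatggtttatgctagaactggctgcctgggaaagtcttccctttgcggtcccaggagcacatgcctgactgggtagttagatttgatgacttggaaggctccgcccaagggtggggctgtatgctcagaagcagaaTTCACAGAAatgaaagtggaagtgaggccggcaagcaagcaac
Bst2: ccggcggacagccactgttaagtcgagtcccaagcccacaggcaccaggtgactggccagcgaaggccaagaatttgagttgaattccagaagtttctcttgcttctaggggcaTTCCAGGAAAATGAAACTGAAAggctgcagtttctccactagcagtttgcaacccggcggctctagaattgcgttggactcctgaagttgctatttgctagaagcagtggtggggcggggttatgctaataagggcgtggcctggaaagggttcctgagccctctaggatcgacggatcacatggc
Stat2: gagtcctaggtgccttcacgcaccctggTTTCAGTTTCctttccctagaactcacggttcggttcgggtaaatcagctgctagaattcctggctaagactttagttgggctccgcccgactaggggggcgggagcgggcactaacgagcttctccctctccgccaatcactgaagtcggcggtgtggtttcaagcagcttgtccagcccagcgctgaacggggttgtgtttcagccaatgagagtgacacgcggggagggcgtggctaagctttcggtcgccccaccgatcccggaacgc
B2m: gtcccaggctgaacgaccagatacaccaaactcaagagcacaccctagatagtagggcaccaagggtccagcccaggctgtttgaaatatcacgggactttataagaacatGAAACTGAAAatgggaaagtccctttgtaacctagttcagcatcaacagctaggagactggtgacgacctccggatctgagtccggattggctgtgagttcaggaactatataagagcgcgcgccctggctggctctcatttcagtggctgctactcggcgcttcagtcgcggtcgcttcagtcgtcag
In Bst2, 2 ISRE core matches begin 130 and 124 bases before the start and overlap each other, and the first also overlaps the TTCNNNGAA match. Stat2 holds 1 ISRE core match on the opposite strand and B2m 1 on its own strand, 139 bases before the start. Ifi35 holds no ISRE core in this window, and its TTCNNNGAA match begins 8 bases into the transcript. In all, 3 of 9 members hold an ISRE core and 2 hold TTCNNNGAA. The shares over all 32851 RefSeq windows of this length, counted by window and not by gene, are 3.44% and 8.3%. Over the 11472 windows of the listed mRNAs they are 2.76% and 6.64%.

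The windows of the class I heavy chain genes are shown because the genes are related in sequence and lie on the same chromosome. They lie at chr17:34000298-34000597 on the minus strand (H2-K1, the first of its 2 RefSeq windows) and chr17:35262844-35263143 on the plus strand (H2-D1) of GRCm38.p6. Capitals mark the longest run of bases that both windows share.
H2-K1: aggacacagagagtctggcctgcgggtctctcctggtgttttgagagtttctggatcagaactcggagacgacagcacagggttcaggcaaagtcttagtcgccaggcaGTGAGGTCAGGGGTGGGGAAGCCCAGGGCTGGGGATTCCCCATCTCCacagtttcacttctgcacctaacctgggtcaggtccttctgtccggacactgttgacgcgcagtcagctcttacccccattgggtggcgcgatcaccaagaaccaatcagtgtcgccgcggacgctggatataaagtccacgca
H2-D1: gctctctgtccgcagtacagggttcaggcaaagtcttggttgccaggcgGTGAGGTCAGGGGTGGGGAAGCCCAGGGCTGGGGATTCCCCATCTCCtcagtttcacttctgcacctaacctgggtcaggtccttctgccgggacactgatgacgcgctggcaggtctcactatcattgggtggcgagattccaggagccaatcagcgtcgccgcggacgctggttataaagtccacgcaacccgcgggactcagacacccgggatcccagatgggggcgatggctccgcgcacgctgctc
The shared run is 47 bases long and begins 141 bases before the annotated start of H2-K1 and 201 before that of H2-D1. The bases tataaa that follow lie after the annotated start in H2-K1 and before it in H2-D1. The 2 distances therefore do not compare the place of the run between the promoters. Neither window holds the ISRE core or TTCNNNGAA as spelled above, nor do those of Irf3, Irf9 and Tap1. The search allowed no mismatch in the spelled bases, so it cannot show that looser response elements are absent.

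**Figure D1:**
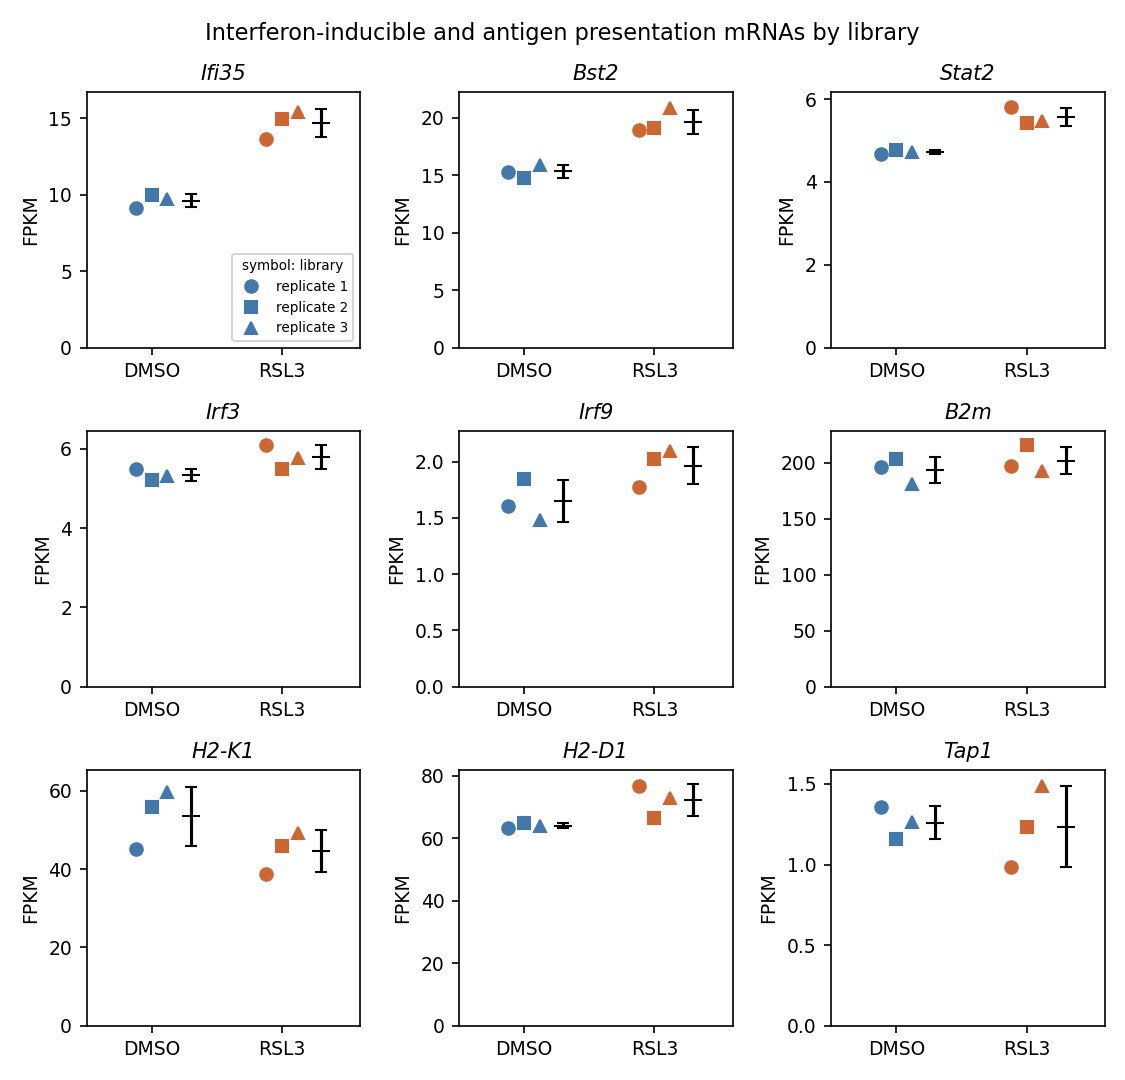
FPKM of the 9 genes (vertical axes, each from 0) in the 3 DMSO and 3 RSL3 libraries; circles, squares and triangles are replicates 1, 2 and 3, and the bars beside them are the mean ± SD. Every RSL3 point lies above every DMSO point for Ifi35, Bst2, Stat2, Irf3 and H2-D1, and the groups overlap for Irf9, B2m, H2-K1 and Tap1.

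Ifi35 (ENSMUSG00000010358.13, chromosome 11, 101448407 to 101458698, plus strand, GRCm38 in GENCODE M21) encodes an interferon-induced leucine zipper protein of the cytosol. It stood at 9.14, 9.99 and 9.74 FPKM in DMSO replicates 1 to 3 and at 13.6, 15.0 and 15.4 FPKM in RSL3 replicates 1 to 3. All RSL3 libraries lay well above all DMSO libraries. The ratio of the group means was 1.53, and the log2 fold change of FPKM + 1 was 0.56 ± 0.08 (SE; 95% interval 0.38 to 0.74; limma adjusted p = 0.00917). The call was lost, at adjusted p between 0.0515 and 0.0565, without DMSO replicate 1, without DMSO replicate 3 or without RSL3 replicate 3, while the log2 fold change stayed between 0.53 and 0.61 over all 15 alternative fits.

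Bst2 (ENSMUSG00000046718.8, chromosome 8, 71534255 to 71537456, minus strand) encodes tetherin, which holds budding enveloped viruses at the cell surface. Its values were 15.3, 14.8 and 15.9 FPKM with DMSO and 18.9, 19.1 and 20.9 FPKM with RSL3. Again the lowest RSL3 library exceeded the highest DMSO library. The log2 fold change was 0.34 ± 0.07 (SE; 95% interval 0.18 to 0.50; limma adjusted p = 0.0344). The call was lost without any single DMSO library (adjusted p = 0.155, 0.157 and 0.112 without replicates 1, 2 and 3), without RSL3 replicate 3 (0.119) and with the replicate number as a block (0.0952). Over all 15 alternative fits the log2 fold change lay between 0.30 and 0.39.

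The 2 members that take part in ISGF3, Stat2 and Irf9, stood above 40.6% and 16.5% of listed mRNAs in the DMSO mean. Stat2 (ENSMUSG00000040033.16, chromosome 10, 128270559 to 128292849, plus strand) stood at 4.67, 4.76 and 4.71 FPKM with DMSO and at 5.82, 5.42 and 5.46 FPKM with RSL3. The 3 DMSO libraries differed by less than 0.1 FPKM, and all RSL3 libraries lay above them. The log2 fold change of 0.20 ± 0.07 (SE; 95% interval 0.026 to 0.37) did not pass (adjusted p = 0.156). It passed in 1 of 15 alternative fits, when the trends of each library with transcript GC content and length were removed (0.24, adjusted p = 0.0343). That fit called 749 of 10578 mRNAs higher and 887 lower, against 261 and 415 of 10590 in the main fit. Irf9 (ENSMUSG00000002325.15, chromosome 14, 55603571 to 55610030, plus strand) stood at 1.61, 1.85 and 1.48 FPKM with DMSO and at 1.78, 2.02 and 2.09 FPKM with RSL3. The groups overlapped, since DMSO replicate 2 exceeded RSL3 replicate 1 (log2 fold change 0.16 ± 0.09, 95% interval -0.048 to 0.38, adjusted p = 0.317). The annotated Irf9 gene overlaps the upstream Rnf31 on the same strand over 123 bases. Rnf31, a ubiquitin ligase gene, went from 2.65 ± 0.19 to 3.52 ± 0.39 FPKM (0.30, adjusted p = 0.104), and its part in the Irf9 values was not tested.

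Irf3 (ENSMUSG00000003184.15, chromosome 7, 44997648 to 45002848, plus strand) encodes the factor that is phosphorylated when nucleic acid sensors fire. It stood at 5.49, 5.20 and 5.31 FPKM with DMSO and at 6.09, 5.50 and 5.76 FPKM with RSL3. The groups were only just apart, since DMSO replicate 1 and RSL3 replicate 2 were nearly equal. The log2 fold change was 0.099 ± 0.08 (95% interval -0.081 to 0.28, adjusted p = 0.481). IRF3 is controlled by phosphorylation, which these mRNA values do not measure. Irf3 overlaps Bcl2l12 on the opposite strand over 1065 bases, and Bcl2l12 was at most 1.14 FPKM in any library.

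**Figure D2:**
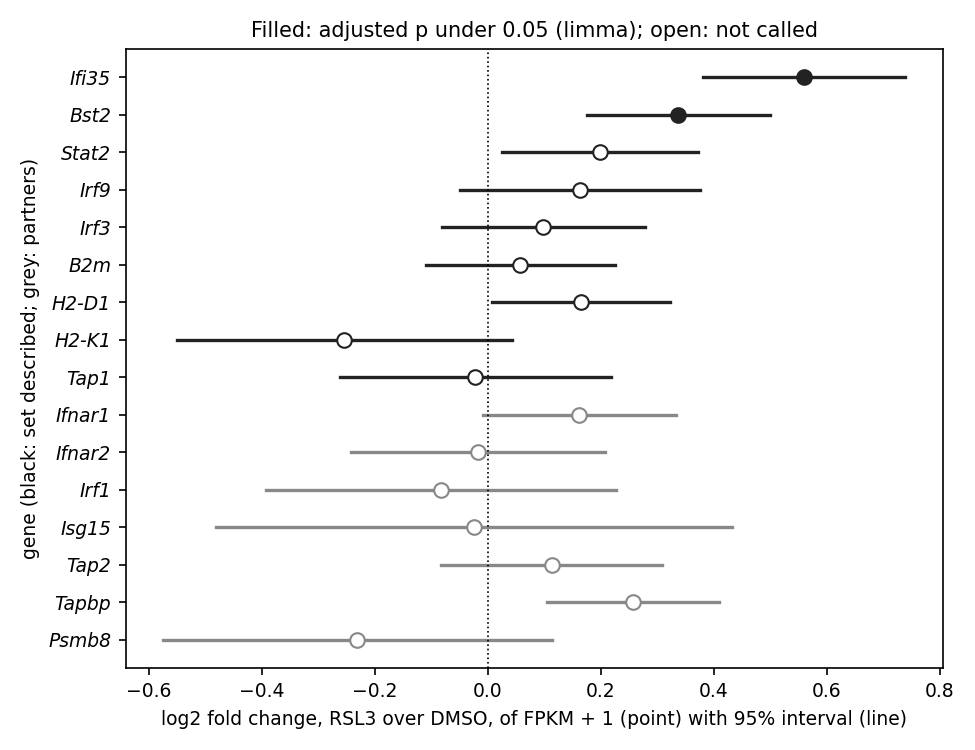
Log2 fold change of FPKM + 1, RSL3 over DMSO (horizontal axis), with its 95% interval for the 9 genes (black) and for partner genes (grey: receptors, factors, Isg15 and loading genes); points are filled where the adjusted p of limma was under 0.05. Only Ifi35 (0.56) and Bst2 (0.34) are filled among the genes drawn.

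Class I light chain mRNA was abundant. B2m (ENSMUSG00000060802.8, chromosome 2, 122147686 to 122153083, plus strand) stood at 196, 204 and 181 FPKM with DMSO and at 197, 216 and 193 FPKM with RSL3, above 98.6% of listed mRNAs in the DMSO mean. The groups overlapped (log2 fold change 0.058 ± 0.07, 95% interval -0.11 to 0.23, adjusted p = 0.671). The interval leaves out a change of the size seen for Ifi35. The annotated Patl2 gene spans B2m on the opposite strand and is not listed in the tables.

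Neither heavy chain gene passed, and their estimates had opposite signs. H2-K1 (ENSMUSG00000061232.15, chromosome 17, 33996017 to 34000347, minus strand) stood at 45.0, 55.9 and 59.6 FPKM with DMSO and at 38.8, 45.8 and 49.2 FPKM with RSL3. Replicate 1 was the lowest library in both groups, and the groups overlapped (log2 fold change -0.25 ± 0.13, 95% interval -0.55 to 0.042, adjusted p = 0.267). H2-D1 (ENSMUSG00000073411.11, chromosome 17, 35262730 to 35267499, plus strand) stood at 63.1, 65.0 and 63.9 FPKM with DMSO and at 76.7, 66.5 and 72.9 FPKM with RSL3. Here the RSL3 libraries all lay above DMSO, RSL3 replicate 2 by little (0.17 ± 0.07, 95% interval 0.0079 to 0.32, adjusted p = 0.188). Neither gene passed in any of its 15 alternative fits.

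Because the 2 heavy chain genes share stretches of sequence, their sum was also compared. Of the 50-base windows along the longest coding transcript in GENCODE M21, 8.79% of those of H2-K1 and 14.3% of those of H2-D1 also occur in a transcript of another gene, among them each other and H2-Q1. The same share was 0 for Ifi35, Bst2, Stat2, Irf3 and B2m, 0.861% for Tap1 and 2.78% for Irf9. Class I genes also differ between mouse strains, and the reference is that of C57BL/6J, not of the strain A mice that gave rise to N2a. The sources used here do not give how the authors' quantification divided shared reads, and its part in the values was not tested. The summed FPKM of H2-K1 and H2-D1 was 108, 121 and 123 with DMSO and 115.5, 112 and 122 with RSL3. The groups overlapped fully, with means of 117 ± 8.21 and 117 ± 4.96 (SD, n = 3; exact permutation test, two-sided, p = 0.9, where the smallest possible p is 0.1). B2m over this sum was 1.66 ± 0.18 with DMSO and 1.74 ± 0.17 with RSL3 (exact permutation p = 0.7). The ratio of H2-D1 to H2-K1, a quantity chosen after the values were seen, was 1.40, 1.16 and 1.07 with DMSO and 1.98, 1.45 and 1.48 with RSL3. These ratios did not overlap (exact permutation p = 0.1, the smallest possible), but with the quantity chosen from these values this p tests nothing. The difference in mean ratio was 0.42, and 0.25 without RSL3 replicate 1, which had the highest ratio.

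**Figure D3:**
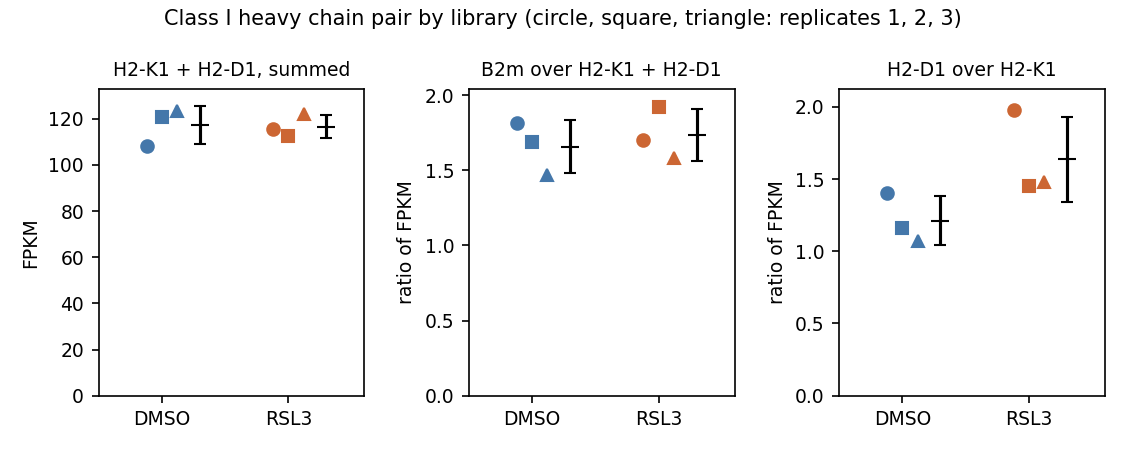
Summed FPKM of H2-K1 and H2-D1 (left), FPKM of B2m over that sum (middle) and FPKM of H2-D1 over H2-K1 (right) in each library, with mean ± SD; all vertical axes start at 0. The sum overlaps between the groups at means of 117. The ratio of H2-D1 to H2-K1, chosen after the values were seen, does not overlap.

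Tap1 (ENSMUSG00000037321.17, chromosome 17, 34187553 to 34197225, plus strand), a subunit of the peptide transporter, was the lowest member. It stood at 1.36, 1.16 and 1.27 FPKM with DMSO and at 0.987, 1.23 and 1.49 FPKM with RSL3. The RSL3 libraries spanned the whole DMSO range (log2 fold change -0.022 ± 0.10, 95% interval -0.26 to 0.22, adjusted p = 0.927). The sign turned to 0.0094 without DMSO replicate 1 and to 0.060 without RSL3 replicate 1. The other subunit gene of the same transporter, Tap2, was far higher at 18.8 ± 1.55 and 20.4 ± 1.37 FPKM (0.11, adjusted p = 0.455). The immunoproteasome gene Psmb9 starts 211 bases from Tap1 on the opposite strand and is not listed in the tables, whose mRNAs all average above 0.5 FPKM with DMSO or with RSL3.

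In FPKM, which is per length, the order of levels with DMSO was B2m, H2-D1, H2-K1, Bst2, Ifi35, Irf3, Stat2, Irf9 and Tap1, and every neighbouring pair was apart over the 3 libraries. The order was the same with RSL3, except that Irf3 and Stat2 overlapped. The members ran from 1.26 FPKM (Tap1) to 194 FPKM (B2m) in the DMSO mean.

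Of the other genes of the pathway, 8 lists with 180 symbols were set out, of which 109 symbols were listed and 97 tested. By limma 5 of the 97 rose and 2 fell, or 5.15% and 2.06%, beside 2.46% and 3.92% of all tested mRNAs. Their median log2 fold change was 0.040. Of the 97, RSL3 lay above DMSO without overlap for 17 and below for 17, beside 13.4% and 19.6% of all tested mRNAs. Counts of list genes at an unadjusted p under 0.05 stand beside the same 9.86% higher and 14.3% lower of all tested mRNAs. The genes that rose were Socs3, Ticam1, Shisa5, Igtp and Procr, and those that fell were Ifitm2 and Psme3.

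None of the interferon genes set out was listed, and the receptors did not pass. Of 5 tested receptor genes 0 rose and 0 fell in limma (1 higher and 0 lower at an unadjusted p under 0.05, against 24.1% of all tested mRNAs in either direction; median 0.16). Ifnar1 stood at 8.17 ± 0.35 and 9.26 ± 0.34 FPKM with every RSL3 library above DMSO (0.16, adjusted p = 0.224), and it passed with GC and length trends removed (0.22, adjusted p = 0.0300). So did Ifngr1 (0.31, adjusted p = 0.0465) and Ifngr2 (0.23, adjusted p = 0.0249), the interferon gamma receptor genes, named after their values were seen. That fit called 749 of all tested mRNAs higher and 887 lower. Ifngr2 also passed with quantile normalization (0.27, adjusted p = 0.0438) and without RSL3 replicate 1 (0.22, adjusted p = 0.0498). Ifnar2 stood at 9.58 ± 0.27 and 9.50 ± 1.14 FPKM (-0.017, adjusted p = 0.937). Of 11 genes of JAK-STAT signalling and its brakes, 1 rose and 0 fell (median -0.17). That was Socs3, which encodes a feedback inhibitor of JAK kinases and is a target of STAT3 as well as of interferon. It stood at 3.49, 3.37 and 3.81 FPKM with DMSO and at 6.82, 5.38 and 6.61 FPKM with RSL3 (0.67 ± 0.10, adjusted p = 0.0140).

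In nucleic acid sensing toward IRF3, 1 of 11 rose and 0 fell (median 0.13). Ticam1, the adaptor that links Toll-like receptors to IRF3, rose from 2.95 ± 0.10 FPKM with DMSO to 4.37 ± 0.06 FPKM with RSL3 (0.44 ± 0.07, adjusted p = 0.0177; 0.0876 with the replicate number as a block). Among 10 other interferon regulatory factors and class I transactivators, 0 rose and 0 fell in limma (3 higher and 1 lower at an unadjusted p under 0.05, beside 24.1% of all; median 0.095). Irf1 stood at 4.35 ± 0.98 and 4.00 ± 0.06 FPKM (-0.082, adjusted p = 0.755), and Irf7 and Nlrc5, the class I transactivator, are not listed.

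Of the other interferon-inducible effectors, 29 were tested and 26 were not called. By limma 2 rose and 1 fell, beside 2.46% and 3.92% of all tested mRNAs, and the list median was 0.016. Of the 66 genes set out, 30 were not listed, among them Ifit1, Ifit3, Mx1 and Oas2. Isg15, a ubiquitin-like modifier that strong interferon responses raise, was at 1.68, 1.29 and 2.11 FPKM with DMSO and at 2.51, 1.37 and 1.20 FPKM with RSL3 (-0.024, 95% interval -0.48 to 0.43, adjusted p = 0.958). Shisa5, an endoplasmic reticulum protein gene induced by p53 as well as interferon, rose from 11.7 ± 0.98 to 17.6 ± 2.53 FPKM (0.54 ± 0.12, adjusted p = 0.0397; 0.0520 with median-ratio scaling). The interferon-inducible GTPase gene Igtp rose from 1.70, 1.35 and 1.47 FPKM with DMSO to 2.30, 2.34 and 2.69 FPKM with RSL3 (0.46 ± 0.09, adjusted p = 0.0322; 0.0980 with the replicate number as a block). Ifitm2, which restricts virus entry, fell from 175 ± 5.00 to 132 ± 12.1 FPKM (-0.40 ± 0.08, adjusted p = 0.0247), but did not pass with median-ratio scaling (0.0741), with quantile normalization (0.103) or with the block (0.0572). Rsad2, the antiviral enzyme viperin, was named after its values were seen. It stood at 0.399, 0.547 and 0.523 FPKM with DMSO and at 0.938, 1.51 and 1.55 FPKM with RSL3, too low for the filter. Without the filter the log2 fold change was 0.64 (adjusted p = 0.0272). Samhd1 and Ifitm3, also named after their values were seen, lay lower without passing (-0.37 and -0.31, limma adjusted p = 0.0607 and 0.0656). Samhd1 passed with trends removed (-0.30, adjusted p = 0.0200), quantile normalization (-0.37, adjusted p = 0.0381) and without RSL3 replicate 1 (-0.31, adjusted p = 0.0456). Ifitm3 passed with trends removed (-0.26, adjusted p = 0.0474). With trends removed, 3 genes of this list were higher and 3 lower.

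Among 8 tested class I heavy chains and class I-like genes other than the members, 1 rose and 0 fell (median 0.15). This was Procr, the endothelial protein C receptor, which has a class I fold but no role in presenting peptides. It rose from 5.91 ± 0.30 to 9.86 ± 0.75 FPKM on average (0.65 ± 0.08, adjusted p = 0.00793). Of 18 genes of peptide supply and loading, 0 rose and 1 fell (2 higher and 2 lower at an unadjusted p under 0.05, beside 24.1% of all; median 0.039). The proteasome activator gene Psme3 fell from 90.1 ± 4.16 to 65.6 ± 2.33 FPKM (-0.45 ± 0.06, adjusted p = 0.00915). It encodes the nuclear activator that interferon does not induce, in contrast to Psme1 and Psme2. Tapbp, or tapasin, which bridges TAP and the heavy chain, stood at 31.0 ± 1.48 and 37.3 ± 1.49 FPKM with no overlap (0.26, adjusted p = 0.0629). It passed with quantile normalization (0.35, adjusted p = 0.0257) and with trends removed (0.21, adjusted p = 0.0373). Psmb8, an immunoproteasome subunit gene, stood at 11.0 ± 1.17 and 9.27 ± 1.83 FPKM (-0.23, adjusted p = 0.386). Of 5 class II genes 0 rose and 0 fell in limma (2 higher and 0 lower at an unadjusted p under 0.05, beside 24.1% of all).

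Without RSL3 replicate 1, 11 of the pathway genes rose and 4 fell, and without RSL3 replicate 2 the numbers were 8 and 1. Without DMSO replicates 1, 2 and 3 they were 2 and 1, 0 and 0, and 1 and 0, and without RSL3 replicate 3 they were 1 and 1. The numbers called over all tested mRNAs also varied widely between these fits, over ranges given in the last section. The counts here are not set against them, so their swing cannot be told from that of all mRNAs and describes no trait of the pathway genes. Procr and Psme3 each passed without 4 of the 6 libraries, Procr without all but DMSO replicate 2 (adjusted p = 0.0508) and DMSO replicate 3 (0.0517), and Psme3 without all but the same 2 (0.0566 and 0.0537). Socs3 was lost without any DMSO library (adjusted p = 0.0718, 0.0777 and 0.0591) and without RSL3 replicate 3 (0.0663), and Ticam1 without the same 4 libraries (0.102, 0.0831, 0.0962 and 0.0771). Shisa5 was also lost without those 4 (0.149, 0.160, 0.0943 and 0.133), and Igtp (0.0838, 0.147, 0.132 and 0.110) and Ifitm2 (0.125, 0.119, 0.0901 and 0.0967) without them and without RSL3 replicate 2 (0.0518 and 0.0503).

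**Figure D4:**
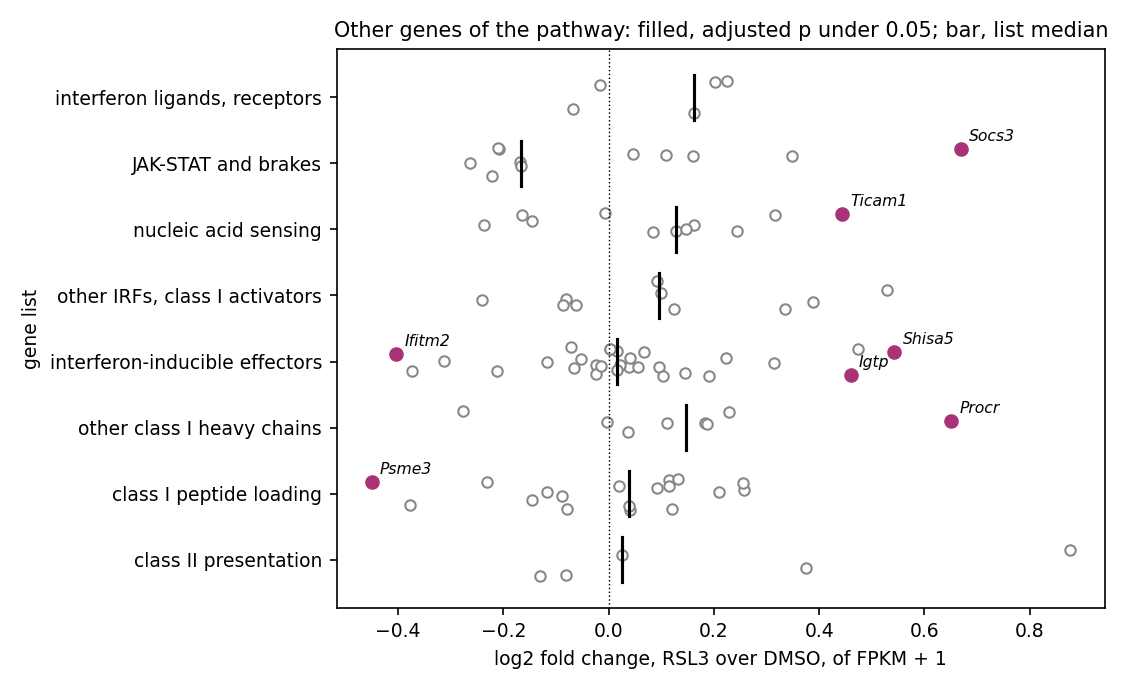
Log2 fold change of FPKM + 1, RSL3 over DMSO (horizontal axis), of the tested genes in 8 pathway lists (rows, with points spread vertically for legibility); filled points have an adjusted p under 0.05 and bars are list medians. Of 97 genes 5 are filled to the right of 0 and 2 to the left, and list medians lie between -0.17 and 0.16.

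The genes whose pattern over the 6 libraries was nearest to that of 2 members were found among 6680 tested mRNAs of at least 5 FPKM on average. The measure was the root mean square difference of log2(FPKM + 1) after centring each gene on its mean. Nearest to Stat2 were Slc20a2 (0.011), E2f7 (0.015) and Ssh1 (0.018). Nearest to B2m were Eef1d (0.025), Myh3 (0.026) and Pomp (0.030). None of these 6 genes passed the test between the groups. Choosing genes by likeness to Stat2 and B2m, which did not pass, made this likely in advance.

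Across the whole series, 676 of 10590 mRNAs passed, 6.38%, with 261 higher and 415 lower (350 higher and 329 lower after quantile normalization). The RSL3 libraries differed in a trend with transcript GC content: across genes, the difference of a library from the other 2 of its group correlated with GC content at 0.65 for RSL3 replicate 1, -0.61 for replicate 2 and -0.24 for replicate 3, and at -0.071 to 0.11 for the DMSO libraries. Without RSL3 replicate 1, Ifi35 and Bst2 stood 0.61 and 0.36 higher on the log2 scale (adjusted p = 0.00442 and 0.0182). The lncRNAs Gm26917 and Gm42418 of the ribosomal RNA locus summed to 18793 to 22979 FPKM with DMSO and 26639 to 33129 FPKM with RSL3. Of 22 liver markers 17 of 18 tested fell, and all 22 summed to 103 to 142 FPKM with DMSO and 35.0 to 53.1 FPKM with RSL3. The part of these shifts in the members' values was not tested. Neuroblastoma and neuron markers were present, 14 of 17 listed, at sums of 604 to 612 FPKM with DMSO and 469 to 542 FPKM with RSL3. Leukocyte and microglia markers were nearly absent: 2 of 17 were listed, Cd68 and Tmem119, summing to 0.689 to 1.07 and 1.06 to 1.43 FPKM, and Ptprc, Itgam, Aif1 and Csf1r were not listed. Of 15 glia and fibroblast markers 5 were listed, summing to 3.29 to 6.65 and 2.58 to 4.63 FPKM. In bulk RNA, fewer cells of a type and less RNA per cell cannot be told apart.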

How the data were processed

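Poly(A)-selected RNA of 6 libraries, 3 per group, was sequenced with a stranded kit, per the labels' protocols. The deposited mRNA and lncRNA values are FPKM made by the authors. Per the submitters' processing notes, the tools were StringTie 1.3.3, HISAT2 and cutadapt and the build GRCm38. The sources used here do not give the annotation release, strand setting or filters. Depth cannot be recovered from FPKM, so no counting intervals are given. The 6 circRNA tables were not used.

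The groups were tested on log2(FPKM + 1) with limma 3.58.1 under R 4.3.3 (two-sided, mean-variance trend) for the 10590 mRNAs that reached 1 FPKM in 3 or more libraries. P-values were adjusted over all of them (Benjamini-Hochberg, threshold 0.05); this scale shrinks changes of low genes. Of 11609 identifiers 11595 were found in GENCODE M21. Promoters are from RefSeq (GRCm38.p6, all 9 members matched). The labels state no pairing, so numbers were not used as pairs. Same-numbered libraries' deviations correlated at -0.15, 0.049 and -0.062, which cannot settle pairing, since the RSL3 deviations also carried the GC trend.

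The members and lists were chosen with earlier results of these data known. Named genes are the members, up to 2 passing genes per direction from each list, 11 fixed partners (1 is not reported here) and the nearest genes to B2m and Stat2; others are said to have been named after their values were seen. Alternatives were pseudocounts of 0.1 and 0.5, no filter or 5 FPKM, scaling, trend removal, the replicate block and leaving out each library.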

Additional observations from a re-analysis of the deposited data

How the results depend on the processing

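All alternatives were fixed with earlier results known, except those for the ratio of H2-D1 to H2-K1, which were chosen after seeing the data. With GC and length trends removed, 749 of all mRNAs were higher and 887 lower, and 18 pathway genes were higher and 6 lower. With the replicate block, which the labels do not ask for, 88 mRNAs were higher and 165 lower, 1 member was higher, and 3 pathway genes were higher and 1 lower. Quantile normalization gave 9 higher pathway genes, and median-ratio scaling 1 lower. Leaving out single libraries gave 47 to 541 higher and 97 to 758 lower mRNAs, 0 to 2 higher members, and 0 to 11 higher and 0 to 4 lower pathway genes. The cause was not tested.

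RSL3 minus DMSO, the summed FPKM of H2-K1 and H2-D1 differed by -0.86, by 2.13 with median-ratio scaling, and by -5.54 to 2.13 without single libraries, turning sign when DMSO replicate 2 (0.82), DMSO replicate 3 (2.13) or the second RSL3 library (1.28) was left out. B2m over that sum differed by 0.078, and by -0.016 to 0.16 without single libraries, turning without DMSO replicate 3 (-0.016) or RSL3 replicate 2 (-0.015). The log2 fold change of Tap1 ranged from -0.10 to 0.060 without single libraries and turned to 0.0094 without DMSO replicate 1 and to 0.060 without RSL3 replicate 1; no other member changed sign in any alternative. Depth is unknown, so precision rests on 3 libraries a group.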
